A study of Rattus norvegicus with 6 samples.

Results

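Amino acids cross liver cell membranes through carriers of several solute carrier (SLC) families. The families SLC1, SLC3, SLC6, SLC7, SLC36, SLC38 and SLC43 were examined here, as the protein-coding rows of the authors' gene table whose symbols begin with these family names. The rule found 60 genes among 17713 protein-coding rows and 32930 rows in all. SLC6 had 19 of them, SLC7 had 15, SLC38 had 11, SLC1 had 7, SLC36 and SLC43 had 3 each, and SLC3 had 2. One of the 15 SLC7 symbols, Slc7a6os, belongs to a gene named for lying next to Slc7a6. It encodes a nuclear import factor of RNA polymerase II and not a carrier. Its values are described apart, but it is counted in the totals below and in the sum and median of SLC7.

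Liver RNA of 3 animals on a high-fat diet with 0.5% sodium carboxymethyl cellulose (HFD group) was compared with that of 3 animals on the same diet given HTG, the Huazhuo Tiaozhi granule, a herbal preparation (HTG group). The labels name no vehicle for the HTG group. For its rats, the paper states that the drugs too were given in 0.5% sodium carboxymethyl cellulose. By the labels, both groups had the intervention for 12 weeks, and no group on a normal diet was among these 6 libraries. In the paper's rats the diet lasted 12 weeks, and the drugs were given only in the later part of it. The labels name rats, the paper's RNA sequencing methods name C57BL/6 J mice, and the rows of the table are Ensembl genes of mouse, by which they are named here. Sex and age of the sequenced animals are not stated in the labels. The labels describe the livers as nonalcoholic fatty liver. Values by library follow the order of libraries 1, 2 and 3 of each group. Nothing in the labels says how the tissue pieces were taken, so the p-values measure the spread between these libraries.

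The liver takes up alanine, glutamine and other gluconeogenic amino acids from the portal blood, and its carriers feed the urea cycle, gluconeogenesis and glutathione synthesis. Members of SLC1 and SLC6 use the sodium gradient, SLC36 uses protons, and SLC38 takes up or releases small neutral amino acids. SLC7 holds cationic amino acid transporters, which act alone, and light chains, which need a heavy chain of SLC3 to reach the membrane. Glutamate uptake by Slc1a2 and glutamine synthesis by Glul are known for the hepatocytes around the central vein.

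Each gene has an estimated count and an FPKM value per library, and FPKM relates fragments to the length of the transcript and to the depth of its library. Levels are compared between genes in FPKM, and groups were compared on the counts, scaled to a common library size and given as CPM. The counts summed to between 50648778 in HTG library 3 and 90563477 in HTG library 2. Among low counts the value 4 was the most frequent, seen 6450 times, with smaller peaks at 8 and 12, but values between these and counts of 1 (5104 times) and 2 (4229 times) were also common. A fragment was therefore assumed, and not shown, to be worth up to 4 counts, and 12 counts were taken as the limit that an empty gene allows, which covers counting error only. Both folds given below with 12 counts set for each library of a group rest on this assumption. Transcripts of the mitochondrial genome took 4.97% to 6.45% of the counts in the HFD libraries and 9.31% to 15.2% in the HTG libraries. FPKM values hold this share in their denominator, and the scaled counts correct for such a shift in composition. Hepatocyte markers were abundant in every library, with Alb between 20515 and 31602 FPKM. At an adjusted p under 0.1, 2 of the 8 were lower in the HTG group (Cps1 and Tat) and none was higher. Of all genes tested, 5.43% were lower and 5.41% higher. Apoa2 was higher in every HTG library and was not called (log2 fold change 0.85, edgeR adjusted p = 0.104). Adipoq of fat cells and Pnlip and Ctrb1 of the exocrine pancreas were at 0 counts throughout. Cela2a, also of the exocrine pancreas, was found in every library, at 0.48 to 2.49 FPKM. The other genes of these lists were at or under 0.07 FPKM.

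Of the 60 genes, 45 passed edgeR's expression filter and were tested. The other 15 had at most 33 counts in any library and a mean of at most 0.0233 FPKM. They were the glutamate transporters Slc1a1 and Slc1a6, the proton-coupled Slc36a2, the SLC38 genes Slc38a5, Slc38a8 and Slc38a11, the SLC6 genes Slc6a2, Slc6a15, Slc6a18, Slc6a19 and Slc6a20a, and the SLC7 genes Slc7a9, Slc7a10, Slc7a13 and Slc7a14. Slc38a8 had no count in any library, and 11 of the 15, with Slc38a8 among them, never exceeded 12 counts. Slc6a19, the main carrier of neutral amino acids in gut and kidney, had 10 counts in HFD library 3 and 0 in the other libraries.

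The levels were very uneven. Of the 60 genes, 24 had a mean of at least 1 FPKM and 25 had a mean under 0.1. Slc38a3, the glutamine carrier SNAT3, led with 282, 223 and 370 FPKM with HFD and 182, 367 and 285 with HTG. It made up between 30.9% and 47.1% of the summed FPKM of all 60 genes, depending on the library. Slc38a4 (SNAT4), Slc6a13 (GABA transporter 2), Slc3a1 and Slc7a2 came next, with means over the 6 libraries of 168, 61.5, 38.7 and 38.2 FPKM. The leading gene of each other family was Slc1a2 in SLC1, Slc36a1 in SLC36 and Slc43a3 in SLC43, with means of 16.5, 7.23 and 4.60 FPKM.

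**Figure D1:**
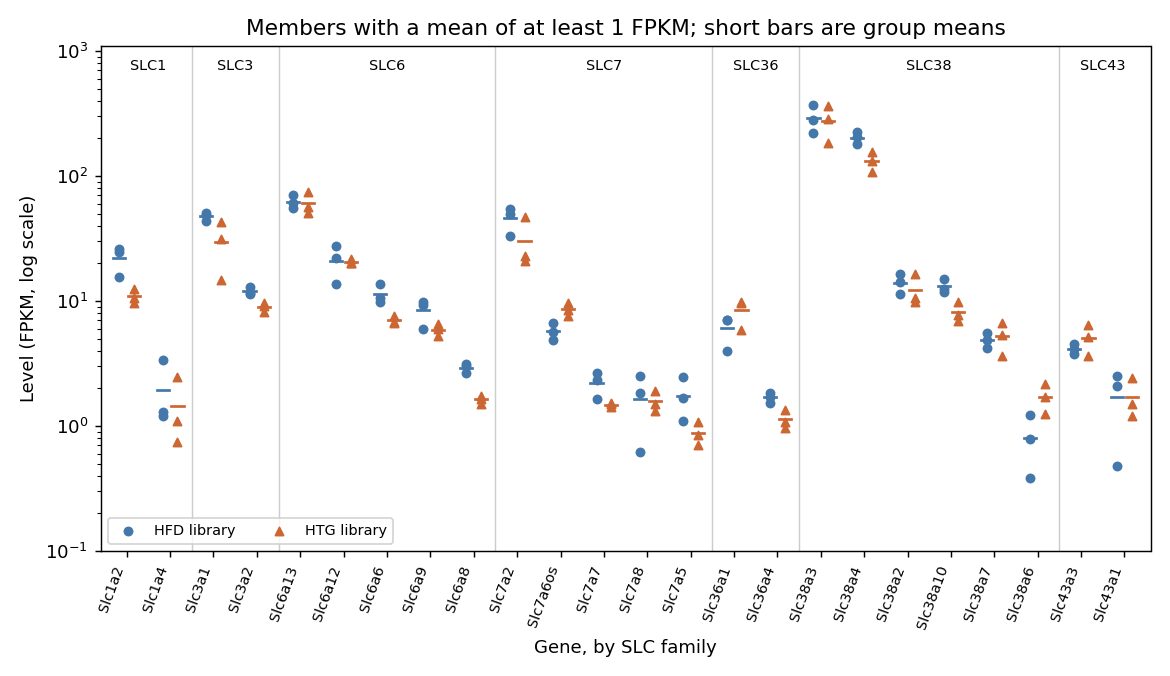
Level of the 24 genes with a mean of at least 1 FPKM, on a logarithmic axis, ordered by family and then by level. Each point is a library (circles HFD, triangles HTG) and each short bar a group mean of 3 libraries. Slc38a3 and Slc38a4 stand above the rest. In FPKM, the HTG points lie below the HFD points for 10 genes (Slc1a2, Slc3a1, Slc3a2, Slc6a6, Slc6a8, Slc7a5, Slc7a7, Slc36a4, Slc38a4 and Slc38a10) and above them for 2 (Slc7a6os and Slc38a6). On scaled counts, 8 of the 24 were apart and lower and 2 apart and higher. The shares among protein-coding genes at that level were 21.6% lower and 17.2% higher.

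At an adjusted p under 0.1, 4 genes were lower in the HTG group and 1 was higher. The lower genes were Slc6a8, Slc6a6, Slc1a2 and Slc38a10, and the higher gene was Slc7a6os. Over all 18455 genes tested, 10.8% passed this threshold, 5.43% as lower and 5.41% as higher. At an adjusted p under 0.05 the edgeR quasi-likelihood test called 0 of the 45, against 0.0108% of all genes (0.00542% lower and 0.00542% higher). At an unadjusted p under 0.05 it called 12 lower and 3 higher, where 12.4% and 12.3% of all genes tested were called. With a log2 fold change beyond 1 in either direction as well, 4 remained (Slc6a17, Slc7a1 and Slc7a11 lower, Slc38a6 higher), against 8.85% of all genes. DESeq2 gave 8 of the 45 an adjusted p under 0.05, against 10.5% of the genes it adjusted. The fitted value was lower in the HTG group for 31 of the 45, and their median log2 fold change was -0.40, beside 0.03 over all genes tested. Among the 24 genes with a mean of at least 1 FPKM, 16 had a lower fitted value and the median was -0.37, beside -0.07 over 9565 protein-coding genes at that level, of which 55.0% had a lower fitted value. At an adjusted p under 0.1 (edgeR), 4 of the 24 were lower and 1 higher, beside 802 (8.38%) lower and 677 higher of the 9565. Without Slc7a6os, 16 of 23 had a lower fitted value with a median of -0.38, and 4 were called lower and 0 higher. All 5 called genes kept their direction when any 1 library was left out, but none had an adjusted p under 0.1 (edgeR) without HFD library 1, 2 or 3 or without HTG library 2 or 3. In bulk tissue, fewer cells of a type and less RNA per cell cannot be told apart.

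**Figure D2:**
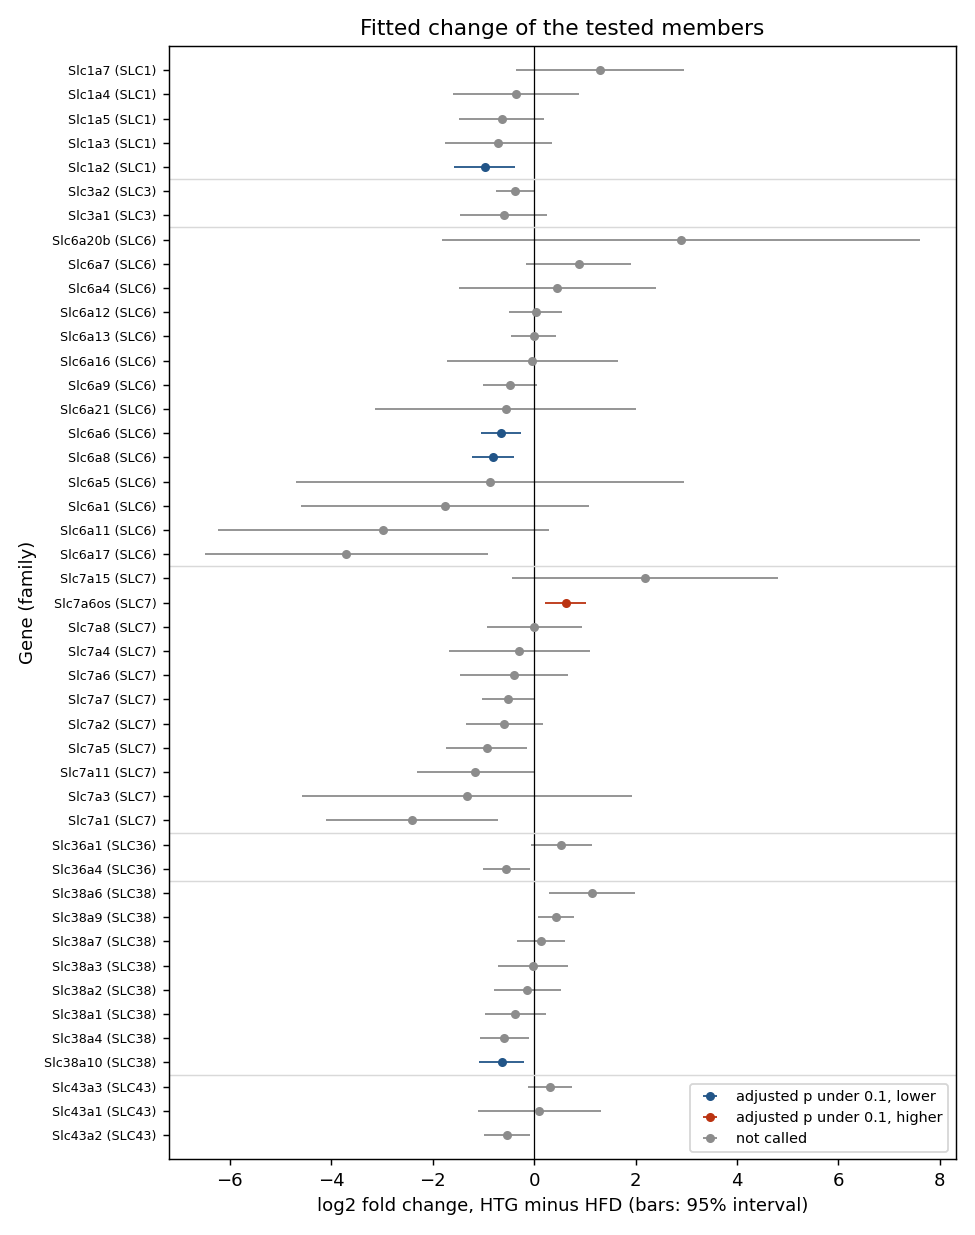
Fitted log2 fold change, HTG minus HFD, of the 45 tested genes by family, with 95% intervals from edgeR's fit. The 4 blue points (lower, adjusted p under 0.1) and the red point of Slc7a6os are the called genes, and the wide intervals belong to genes with few counts such as Slc6a20b and Slc6a11.

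In SLC1, the fall of Slc1a2 set the family's level. Slc1a2 (ENSMUSG00000005089, chromosome 2, 102489004 to 102621129) encodes GLT-1, a high-affinity carrier of glutamate and aspartate. It had 24.6, 26.0 and 15.6 FPKM with HFD and 12.5, 9.61 and 10.55 FPKM with HTG. Every HTG library lay below every HFD library. In scaled counts it fell from 302 ± 87.4 to 153 ± 25.8 CPM (mean ± SD, 3 libraries each) with a log2 change of -0.98 (SE 0.27, edgeR adjusted p = 0.0814). Slc1a2 was between 76.1% and 92.7% of the summed FPKM of SLC1, which was 25.1 ± 4.10 in the HFD group and 13.0 ± 1.73 in the HTG group (SD, n = 3 per group).

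Because Slc1a2 is known as a gene of central-vein hepatocytes, other genes of that zone are given beside it. Of a list of 15, 6 were lower and 0 higher at an adjusted p under 0.1, with a median log2 fold change of -0.72, where 5.43% of all genes tested were lower and 5.41% higher. Of 9565 protein-coding genes with a mean of at least 1 FPKM, 802 (8.38%) were lower and 677 higher. The summed level of the 15 central-vein genes ran from 4589 to 6782 FPKM in the HFD group and from 3094 to 4952 FPKM in the HTG group, with overlap. Cyp2e1, the most abundant of the 15, was not called (edgeR adjusted p = 0.412). The fitted value was lower for 12 of the 15, and Rgn, Nr1i3 and Lgr5 had higher values, up to a log2 fold change of 0.29. Glul had 306, 387 and 331 FPKM with HFD and 218, 127 and 154 FPKM with HTG. Of 15 genes of hepatocytes near the portal vein, 2 were lower and 0 higher against the same shares, with a median of -0.28. The 2 were Cps1 and Ass1, with log2 fold changes of -1.62 and -1.14. The summed level of these 15, most of it Alb, ran from 28779 to 35712 FPKM in the HFD group. In the HTG group it ran from 22957 to 25671 FPKM, without overlap. The part of zonal genes in the result for Slc1a2 was not tested.

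No other SLC1 gene was called. Slc1a4 and Slc1a5, exchangers of small neutral amino acids, had log2 fold changes of -0.35 and -0.64 with adjusted p-values of 0.726 and 0.318 (edgeR). HFD library 3 had the highest level of both, with 3.36 FPKM for Slc1a4 against 0.75 to 2.45 FPKM in the other libraries, and 1.30 FPKM for Slc1a5 against 0.50 to 0.88. Slc1a3 and Slc1a7, glutamate transporters of glia and retina, stayed at or under 0.15 FPKM. Slc1a7 was the family's 1 gene with a higher fitted value, and its counts of 11, 12 and 4 in HFD libraries 1, 2 and 3 were within the limit of an empty gene. With HTG it had 28, 30 and 15 counts. With 12 counts set for each HFD library, the ratio of group means was 1.89-fold higher. The fitted log2 fold change was 1.30 with a 95% interval from -0.35 to 2.96, which includes no change (edgeR adjusted p = 0.304).

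Both SLC3 heavy chains had lower fitted values and neither was called. Slc3a1 (rBAT), the heavy chain for cystine and cationic amino acid transport, had 48.8, 43.4 and 51.04 FPKM with HFD and 31.5, 14.7 and 42.9 FPKM with HTG. The HFD libraries were close to each other and the HTG libraries spread widely, with HTG library 2 lowest. On scaled counts the groups overlapped, at 112 ± 4.10 and 74.0 ± 39.5 CPM (SD, n = 3 per group, log2 fold change -0.60, edgeR adjusted p = 0.363). Without HTG library 2 the log2 fold change was -0.25, and without HTG library 3 it was -1.02. Slc3a2 (CD98 heavy chain) had 11.46, 12.9 and 11.6 FPKM with HFD and 9.56, 9.16 and 8.16 FPKM with HTG. These groups did not overlap, but the log2 fold change of -0.38 (standard error 0.16) had an adjusted p of 0.192 (edgeR).

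The partners of the heavy chains were at very different levels. Slc7a9 and Slc7a13, the light chains known to pair with Slc3a1, together had at most 0.02 FPKM in any library, beside 14.7 to 51.04 FPKM of Slc3a1. The 6 light chains known to pair with Slc3a2 (Slc7a5, Slc7a6, Slc7a7, Slc7a8, Slc7a10 and Slc7a11) summed to between 33.6% and 62.8% of the FPKM of Slc3a2 in the HFD libraries and between 42.2% and 49.9% in the HTG libraries, so the groups overlapped in this ratio.

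In SLC6, the taurine carrier Slc6a6 and the creatine carrier Slc6a8 fell, and the 2 most abundant genes of the family did not pass the test. Slc6a8 (ENSMUSG00000019558, chromosome X, 72716756 to 72726108) had 2.63, 3.12 and 3.04 FPKM with HFD and 1.75, 1.63 and 1.51 FPKM with HTG. The groups were apart and the libraries within a group were close. It fell from 15.9 ± 2.17 to 9.12 ± 0.690 CPM (mean ± SD, 3 libraries each) with a log2 change of -0.80 (SE 0.18, edgeR adjusted p = 0.0612), the smallest adjusted p among the 45. Slc6a6 (ENSMUSG00000030096, chromosome 6, 91661034 to 91736047) had 10.5, 9.91 and 13.7 FPKM with HFD and 6.68, 7.54 and 6.76 FPKM with HTG. All HTG libraries lay below the HFD libraries, and it fell from 99.2 ± 15 to 63.2 ± 2.56 CPM (mean ± SD, 3 libraries each) with a log2 change of -0.65 (SE 0.18, edgeR adjusted p = 0.0796).

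Slc6a13 and Slc6a12, GABA transporter 2 and the betaine and GABA transporter BGT1, lie 5342 bases apart on chromosome 6 and point the same way. Slc6a13 had 55.9, 60.6 and 70.3 FPKM with HFD and 57.05, 74.0 and 50.8 FPKM with HTG, and the log2 fold change was -0.01, with a 95% interval from -0.45 to 0.44. Slc6a12 had 13.7 to 27.4 FPKM in the HFD group and 20.1 to 21.65 FPKM in the HTG group, with a log2 fold change of 0.03 and an interval from -0.50 to 0.55. The 95% interval of Slc6a8, from -1.22 to -0.39, overlapped both of these, and the genes were not tested against each other.

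Slc6a9, the glycine transporter GlyT1, had 9.32, 9.89 and 6.00 FPKM with HFD and 6.53, 6.00 and 5.21 FPKM with HTG, so HFD library 3 lay within the HTG range (log2 fold change -0.47, edgeR adjusted p = 0.247). The rest of the family was at or under 1.13 FPKM in every library. Slc6a17, a carrier of synaptic vesicles, had 43, 44 and 49 counts with HFD and 11, 0 and 0 counts with HTG. The HTG counts were within the limit of an empty gene. With 12 counts set for each HTG library, the ratio of group means was 3.70-fold lower, a figure that leaves out the spread between libraries. The fitted log2 fold change was -3.70 with a 95% interval from -6.49 to -0.91 (edgeR adjusted p = 0.115). Slc6a7, a proline carrier of neurons, had 0.10 to 0.11 FPKM in the HFD group and 0.18 to 0.20 FPKM in the HTG group, without overlap and with an adjusted p of 0.275 (edgeR). For Slc6a20b, a near copy of its neighbour Slc6a20a, HTG library 3 had 522 counts, HFD library 2 had 107, HTG library 2 had 85 and the others had 0.

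In SLC7, no transporter was called. Slc7a2, the cationic amino acid transporter CAT2 that brings arginine into hepatocytes, led the family with 49.7, 54.7 and 33.4 FPKM with HFD and 21.0, 47.3 and 23.0 FPKM with HTG. HTG library 2 lay within the HFD range. The log2 fold change was -0.59 (standard error 0.33, edgeR adjusted p = 0.318), and without HTG library 2 it was -0.97 with an adjusted p of 0.216.

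Slc7a1, the more widely expressed cationic transporter CAT1, had 0.05, 0.50 and 0.56 FPKM with HFD and 0.06, 0.09 and 0.06 FPKM with HTG. HFD library 1 was as low as the HTG libraries, and the other 2 HFD libraries were several times higher. The log2 fold change of -2.41 (standard error 0.74) had an adjusted p of 0.102 in edgeR and of 0.0033 in DESeq2. Leaving out HFD library 1 gave -2.93 with an adjusted p of 0.0669 (edgeR).

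Among the light chains, Slc7a5 (LAT1, a carrier of large neutral amino acids) had 1.09, 1.67 and 2.45 FPKM with HFD and 0.70, 0.85 and 1.07 FPKM with HTG. The scaled counts of HFD library 1 and HTG library 3 overlapped, at 4.05 and 4.59 CPM (log2 fold change -0.94, edgeR adjusted p = 0.147). Slc7a7 (y+LAT1, which exchanges cationic for neutral amino acids) ran from 1.64 to 2.63 FPKM in the HFD group and from 1.43 to 1.52 FPKM in the HTG group, without overlap (log2 fold change -0.51, adjusted p = 0.203). Slc7a11, the cystine and glutamate exchanger xCT, had 0.06, 0.08 and 0.09 FPKM with HFD and 0.06, 0.02 and 0.02 FPKM with HTG (log2 fold change -1.16, edgeR adjusted p = 0.20). HFD library 1 and HTG library 1 were level in FPKM, and the scaled counts of the groups were apart. Slc7a8 (LAT2) had a log2 fold change of 0.00 with a wide 95% interval from -0.93 to 0.94. HFD library 2 was at 0.62 FPKM and the other HFD libraries were at 1.82 and 2.49.

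Slc7a6os (ENSMUSG00000033106, chromosome 8, 106927349 to 106937567) was higher in the HTG group. It had 6.63, 5.66 and 4.84 FPKM with HFD and 7.61, 9.61 and 8.48 FPKM with HTG. It rose from 25.0 ± 3.88 to 38.6 ± 3.62 CPM (mean ± SD, 3 libraries each) with a log2 change of 0.63 (SE 0.18, edgeR adjusted p = 0.0859). Slc7a6 itself, the light chain y+LAT2, ends 2010 bases from it on the other strand and stayed between 0.12 and 0.33 FPKM (log2 fold change -0.40, adjusted p = 0.63). The rows do not overlap in the table.

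**Figure D3:**
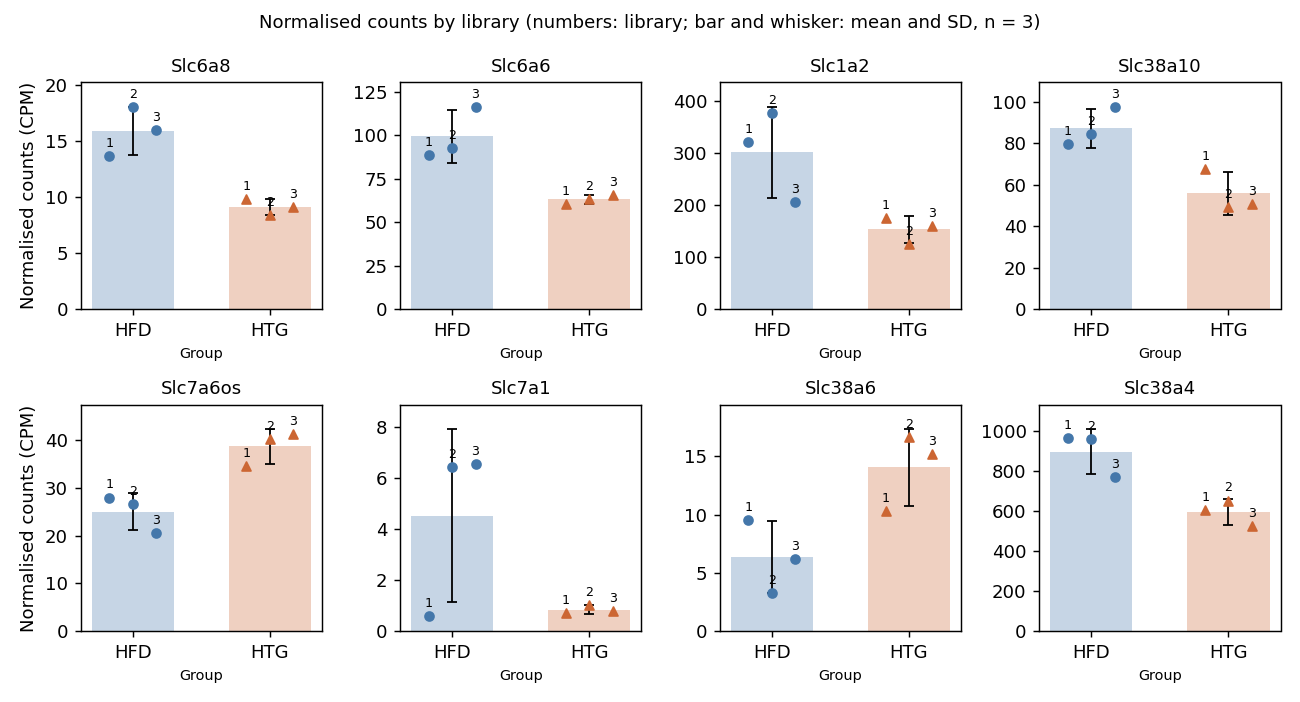
Scaled counts (CPM) of 8 genes by group, with each library's point and number and the mean and SD of 3 libraries as bar and whisker. The upper row and Slc7a6os are the 5 called genes, without overlap between groups. For Slc7a1, HFD library 1 (0.617 CPM) sits beside the HTG libraries.

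SLC38 held the most abundant genes, and 1 of its 8 tested genes was called. Slc38a10 (ENSMUSG00000061306, chromosome 11, 119994786 to 120042172) had 12.45, 11.85 and 15.1 FPKM with HFD and 9.83, 7.73 and 6.87 FPKM with HTG. All HTG libraries were below all HFD libraries, and it fell from 87.2 ± 9.31 to 55.8 ± 10.3 CPM (mean ± SD, 3 libraries each) with a log2 change of -0.64 (SE 0.19, edgeR adjusted p = 0.0958). This adjusted p was the closest to the threshold among the called genes.

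Slc38a4 (SNAT4), a sodium-coupled carrier of small neutral amino acids enriched in liver, had 227, 204 and 179 FPKM with HFD and 133, 155 and 108 FPKM with HTG. Its row overlaps that of a non-coding RNA on the other strand. The groups were apart, with 898 ± 112 and 595 ± 64.2 CPM (SD, n = 3 per group). The log2 fold change of -0.59 (standard error 0.21) did not pass in edgeR (adjusted p = 0.134) and had an adjusted p of 0.045 in DESeq2. Slc38a3 had a log2 fold change of -0.02 and a 95% interval from -0.70 to 0.66. Slc38a2 (SNAT2), which is known to be induced when amino acids are scarce, had 14.3, 16.45 and 11.3 FPKM with HFD and 9.91, 10.6 and 16.35 FPKM with HTG, with overlap and an adjusted p of 0.807 (edgeR).

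Slc38a6 had 1.22, 0.38 and 0.79 FPKM with HFD and 1.24, 2.16 and 1.69 FPKM with HTG. HFD library 1 and HTG library 1 were almost level, and the groups were narrowly apart. The log2 fold change was 1.14 (standard error 0.37), with an adjusted p of 0.111 in edgeR and of 0.033 in DESeq2. Of the lysosomal members, Slc38a9, the arginine sensor of the mTORC1 pathway, had 0.87, 0.75 and 0.82 FPKM with HFD and 0.99, 1.10 and 1.10 FPKM with HTG, without overlap and with a log2 fold change of 0.43 (edgeR adjusted p = 0.135). The lysosomal glutamine carrier Slc38a7 overlapped between groups, at 4.20 to 5.50 FPKM and 3.65 to 6.61 FPKM (log2 fold change 0.13). Slc38a1 (SNAT1) was at or under 0.31 FPKM in every library.

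SLC36 and SLC43 had no called gene. Slc36a1 (PAT1), a proton-coupled carrier of small amino acids in lysosomes and gut, had 7.03, 4.01 and 7.09 FPKM with HFD and 5.91, 9.58 and 9.76 FPKM with HTG (log2 fold change 0.54, edgeR adjusted p = 0.253). HTG library 1 lay within the HFD range. Slc36a4 had 1.54, 1.84 and 1.70 FPKM with HFD and 0.97, 1.35 and 1.08 FPKM with HTG, lower in every HTG library (log2 fold change -0.55, adjusted p = 0.142). Slc43a3, known as a purine nucleobase carrier, and Slc43a1 (LAT3) had log2 fold changes of 0.31 and 0.10 with adjusted p-values of 0.342 and 0.93 (edgeR). Slc43a3 had 4.57, 3.78 and 4.11 FPKM with HFD and 5.15, 6.38 and 3.60 FPKM with HTG, so HTG library 3 was the lowest of all. Slc43a2 (LAT4), which exports branched-chain and aromatic amino acids, had 1.06, 0.82 and 1.13 FPKM with HFD and 0.76, 0.72 and 0.55 FPKM with HTG, without overlap (log2 fold change -0.53, adjusted p = 0.15). In Slc43a1, as in Slc7a8 and Slc38a6, HFD library 2 was the lowest of all 6 libraries.

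**Figure D4:**
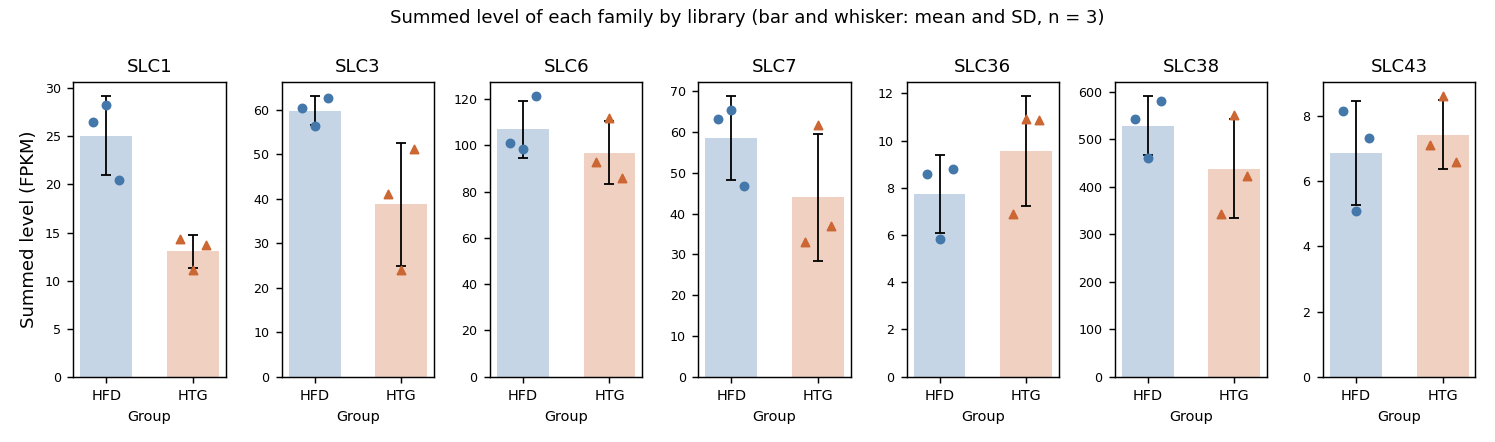
Summed FPKM of each family by group, with the 3 libraries as points and their mean and SD as bar and whisker. The groups are apart in SLC1 and SLC3, both lower in the HTG group, and overlap in the other 5 families.

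By summed FPKM, SLC3 was at 59.7 ± 3.24 in the HFD group and 38.7 ± 13.7 in the HTG group (SD, n = 3 per group), and the libraries of the groups did not overlap. SLC38 was at 529 ± 61.8 and 439 ± 105, SLC6 at 107 ± 12.4 and 96.9 ± 13.5, and SLC7 at 58.5 ± 10.3 and 44.0 ± 15.6, each with overlap. The SLC7 sum holds Slc7a6os, at 4.84 to 9.61 FPKM. SLC36 was at 7.74 ± 1.64 and 9.56 ± 2.32 and SLC43 at 6.86 ± 1.60 and 7.43 ± 1.05, also with overlap. The median log2 fold changes of the tested genes were -0.64 in SLC1, -0.49 in SLC3, -0.51 in SLC6, -0.51 in SLC7, -0.01 in SLC36, -0.08 in SLC38 and 0.10 in SLC43. Leaving out 1 library moved several of these by over 1.5 times: SLC1 was at -0.32 without HFD library 3, SLC3 at -0.30 without HTG library 2, and SLC6 at -0.16 without HFD library 2 and -0.30 without HTG library 3. SLC43 turned to -0.33 without HFD library 2 and -0.32 without HTG library 3. Non-overlapping scaled counts were found in 11 lower and 5 higher genes of the 45, beside 32.1% of all genes tested, 15.5% lower and 16.5% higher.

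Lists of genes around amino acid transport were counted at the same threshold, to be read against the 5.43% of all genes that were lower and 5.41% that were higher. Among 9565 protein-coding genes with a mean of at least 1 FPKM the share was larger, with 802 (8.38%) lower and 677 higher. Of 11 tested carriers outside the 7 families, 2 were lower and 0 higher: the peptide and histidine carrier Slc15a4, with a log2 fold change of -0.67, and Slc17a7, a vesicular glutamate carrier at or under 0.26 FPKM. The aromatic amino acid carrier Slc16a10 had 19.7, 20.1 and 12.3 FPKM with HFD and 9.98, 9.95 and 10.9 FPKM with HTG (log2 fold change -0.72, edgeR adjusted p = 0.122). Of 34 tested genes of amino acid sensing by mTORC1, the kinase complex that couples amino acids to growth, 6 were lower and 1 was higher, with a median of -0.16. The lower genes with the smallest p were the Rag GTPases Rragd and Rraga, with log2 fold changes of -2.19 and -1.37. Of 16 enzymes of glutamine and glutathione metabolism, 5 were lower and 0 higher, with a median of -0.51, and Asnsd1, Gpt2 and Oat had the smallest p. Oat and Glul, both among these 5, were also counted above among the lower central-vein genes. Of 9 genes around the amino acid starvation kinase GCN2, 1 was lower (Eif2s1) and 0 higher.

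ATF4 is the transcription factor that raises several of these carriers when amino acids are scarce. Of 24 tested genes, made up of Atf4 and targets of ATF4, 3 were lower and 0 higher, with a median of -0.36. The 3 were Phgdh and Psat1 of serine synthesis and Aldh1l2 of mitochondrial folate metabolism, with log2 fold changes of -3.92, -2.17 and -5.01. Atf4 itself had 43.5 to 49.5 FPKM in the HFD group and 48.6 to 56.4 FPKM in the HTG group (log2 fold change 0.20, edgeR adjusted p = 0.502).

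Markers of other liver cells were counted beside these results, and their part in them was not tested. The counts are at an adjusted p under 0.1, where 5.43% of all genes tested were lower and 5.41% higher. At this threshold 0 of 9 leukocyte genes, 0 of 7 genes of sinusoidal endothelium and 0 of 6 red cell genes passed. The summed levels were 56.4 to 77.4 FPKM and 35.99 to 92.6 FPKM for leukocytes, 11.9 to 34.2 FPKM and 21.2 to 38.5 FPKM for endothelium, and 230 to 512 FPKM and 272 to 613 FPKM for red cells, in the HFD and HTG groups. Of 7 Kupffer cell genes 1 was lower (Adgre1), with sums of 290 to 595 FPKM and 220 to 428 FPKM. Of 7 stellate cell genes 1 was lower (Reln), with sums of 32.2 to 46.1 FPKM and 24.4 to 39.6 FPKM. Of 6 bile duct genes 1 was higher (Sox9), with sums of 49.5 to 61.4 FPKM and 33.2 to 66.5 FPKM. Genes of fat cells summed to at most 0.08 FPKM, and those of the exocrine pancreas to at most 2.49 FPKM.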

How the data were processed

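Liver libraries of 3 HFD and 3 HTG animals were analysed, grouped by their titles, and 0 columns belonged to other samples. The authors deposited estimated counts per gene, rounded to whole numbers and not normalised, and FPKM values. The submitters' processing notes name HISAT2, StringTie and SAMtools and the rat build mRatBN7.2, but the rows are mouse Ensembl genes, and positions are those of the table, whose build is not given in the sources used here. Use of strand in counting is not given in the sources used here. Reads of near copies such as Slc6a20a and Slc6a20b, and of genes overlapping on either strand (such as Prepl at Slc3a1), may be shared between rows. No mouse sequence was at hand, so none is shown. The titles write HTG where the treatment tag writes HCG.

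Counts were tested with edgeR 4.0.16 (glmQLFit, glmQLFTest, TMM, filterByExpr) in R 4.3.3, with group as the only term and the Benjamini-Hochberg adjustment over all 18455 genes tested. A call was an adjusted p under 0.1, since 2 genes passed 0.05. An exact permutation test of 3 against 3 libraries cannot go below p = 0.1. Alternatives were DESeq2 1.42.0, other filters and scalings, counts divided by 4, limma 3.58.1 on log2(FPKM + 0.1) or log2(FPKM + 1), the replicate number as a block, and each library left out in turn. The genes, lists and threshold were chosen with earlier results of these data known. Per-library values are given for genes that passed, for genes without overlap at an unadjusted p under 0.05, and for the leading gene of each family. Other genes given by library were chosen after their values were seen. The gene counted as higher in the mTORC1 list is not reported here by name.

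On simulated counts for 17730 tested genes, the test called 18 of 95 genes changed 2-fold, 68 of 97 changed 4-fold and 15 of 17538 unchanged genes. Only 200 genes were set to change, a smaller share than the 10.8% called in the real data. Because the adjusted p depends on that share, these call rates need not hold for the real data.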

Additional observations from a re-analysis of the deposited data

How the results depend on the processing

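The 5 called genes kept their direction and an unadjusted p under 0.05 in all 17 alternatives. Their adjusted p stayed under 0.1 for all 5 in 9 of these, and for 2 of the 5 with no filter on low counts. The number called lower, 4 in the fit reported, was 8 with DESeq2, 2 with no filter, 0 with the replicate number as a block, 0 with limma on log2(FPKM + 0.1) without a filter, 0 at an adjusted p under 0.05, and between 0 and 9 with 1 library left out (9 without HTG library 1, 1 without HFD library 1, 0 without each of the others). The number called higher, 1 in the fit reported, was 2 with DESeq2, 2 with at least 10 counts in every library, 2 with counts divided by 4, 0 with no filter, 0 with the block, 0 with limma without a filter, 0 at an adjusted p under 0.05, and between 0 and 1 with 1 library left out. The fits without a library have fewer samples, and for these settings 0 to 2578 of all genes passed. The replicate numbers did not pair the libraries: the correlations of same-numbered deviations were -0.08, -0.07 and 0.10.

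The median of the 45 genes was -0.19 with limma without a filter. That of SLC6, -0.51 in the fit reported, was 0.0085 with counts divided by 4, -0.019 with at least 10 counts in every library and -0.088 with limma without a filter, and that of SLC36 was 0.46 with DESeq2 and 0.38 with no filter, and the cause was not tested. Leaving out 1 library gave medians between -0.94 and -0.32 in SLC1, -0.69 and -0.30 in SLC3, -0.63 and -0.16 in SLC6, -0.67 and -0.39 in SLC7, -0.11 and 0.10 in SLC36, -0.24 and -0.041 in SLC38, and -0.33 and 0.35 in SLC43. For mTORC1 sensing the median was -0.10 with at least 10 counts, -0.12 with upper-quartile scaling, -0.088 with the block, -0.092 with counts divided by 4, -0.13 with limma on log2(FPKM + 1) and between -0.24 and -0.089 with 1 library left out. Genes under about 0.1 FPKM rest on few fragments and their folds are imprecise.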

Other observations

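HFD library 1 differed from HFD libraries 2 and 3 in Slc7a1 and in Phgdh, Psat1 and Aldh1l2 among the ATF4 targets, a likeness chosen after the values were seen. Phgdh had 0.25, 2.06 and 2.16 FPKM with HFD and 0.06, 0.16 and 0.06 FPKM with HTG, and Aldh1l2 had 0.04, 0.53 and 0.44 FPKM in the HFD libraries and at most 0.02 FPKM in the HTG libraries. Psat1 had 0.34, 0.85 and 1.20 FPKM with HFD and 0.19, 0.12 and 0.18 FPKM with HTG. Psph, the other enzyme of serine synthesis in the list, did not share this order, with 1.26, 0.86 and 1.94 FPKM with HFD and 0.99, 1.01 and 0.96 FPKM with HTG. Asns, the asparagine synthetase gene that ATF4 also controls, had another order, with 13.97, 4.42 and 5.28 FPKM with HFD and 9.12, 1.74 and 5.12 FPKM with HTG. Fgf21 was at 15.1 FPKM in HFD library 2 and at or under 1.76 FPKM in the other 5 libraries.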
